A study of Homo sapiens with 12 samples.

Results

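The comparison set cells given doubly substituted tau, Tau-K174Q-S199E, against cells given wild-type tau, Tau-WT. Its members were taken from the construct named in each column: libraries 16, 17 and 18 carried Tau-K174Q-S199E and libraries 1, 2 and 3 carried Tau-WT, which makes 6 of the 12 libraries. All 1676 genes of the deposited table entered. The other libraries carried Tau-S199E (10, 11 and 12) or Tau-K174Q (4, 5 and 6), and their values are given beside the comparison where they place it. Every library was made from SH-SY5Y, an established human cell line from a neuroblastoma, 24 h after transfection with its construct. All groups, Tau-WT included, therefore received an introduced tau, and no cells without a tau construct were analysed here. The sources used here give neither the vector, nor the tau isoform, nor the share of cells that took up a construct.

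Tau, the product of MAPT, binds and stabilises microtubules in axons and forms aggregates in Alzheimer disease and other tauopathies. Its binding is tuned by phosphorylation of many serines and threonines and by acetylation of lysines. Glutamine in place of lysine resembles an acetylated lysine, and glutamate in place of serine resembles a phosphorylated serine, so Tau-K174Q-S199E carries a stand-in for each modification in 1 molecule. Both residues lie in the proline-rich region, upstream of the microtubule-binding repeats. The stretch of coding sequence that holds both is shown because the 2 changed codons define the groups. It is the reference sequence of transcript MAPT-205 (GENCODE 29, GRCh38, chromosome 17, sense strand), from codon 170 to codon 204 of the 441-residue reading frame, with the lysine codon changed in K174Q (AAA) and the serine codon changed in S199E (AGC) in capitals. Codons and residues are counted from 1 at the first methionine. The sources used here do not give the bases that encode them in the constructs.
MAPT codons 170 to 204: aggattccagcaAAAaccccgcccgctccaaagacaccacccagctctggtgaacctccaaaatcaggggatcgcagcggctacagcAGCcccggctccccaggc

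Values are standardised by gene: each gene has a mean of 0 and an SD of 1 over the 12 libraries. A difference between groups is therefore in SD units of that gene, cannot be turned into a fold change, and does not allow levels to be compared between genes. The genes of the table appear to have been selected by the authors at an adjusted p below 0.05, for a contrast that the header does not name. Library depth is unknown, since standardising removes it. The labels do not say that the replicates are separate cultures. The p-values therefore speak only of the spread among these libraries, and that spread may be technical. In bulk RNA such as this, fewer responding cells and less RNA per cell cannot be told apart. None of the 32 noradrenergic neuroblastoma markers was among the 1676 genes, so the labelled cell type could not be checked from the table.

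Library 18 stood apart from the other double-mimic libraries. Over the 1676 genes the root mean square distance from the Tau-WT mean was 1.51 SD units for library 18, against 0.68 for library 16 and 0.73 for library 17. Single Tau-WT libraries lay 0.83, 0.71 and 0.58 SD units from the mean of the other Tau-WT libraries, and the distances of libraries 16 and 17 fell among these. The measures are not quite alike. A Tau-WT library was left out of the mean it was compared with, so that mean held fewer libraries, which widens the Tau-WT distances. Library 18 lay closer to the Tau-K174Q mean (0.45 SD units) and to the Tau-S199E mean (0.80) than to Tau-WT. Libraries 16 and 17 lay 1.47 and 1.18 SD units from the Tau-K174Q mean and 2.04 and 1.62 from the Tau-S199E mean. Gene by gene, the nearest construct mean was that of Tau-WT in 1423 genes for library 16, in 1094 for library 17 and in 92 for library 18. For library 18 the nearest was Tau-K174Q in 1082 genes and Tau-S199E in 502. Medians of most gene groups below are given with library 18 and without it, and genes by the value of each library. The number of higher or lower genes of a group without library 18 is given where it differed.

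Library 18 was above all 3 Tau-WT libraries in 810 genes (48.3%) and below all 3 in 698 (41.6%), and within their range in 168 (10%). Library 16 was above in 623 genes (37.2%), below in 243 (14.5%) and within the range in 810 (48.3%). Library 17 was above in 384 (22.9%), below in 505 (30.1%) and within the range in 787 (47%). Libraries 16 and 17 thus differed from each other in which side of Tau-WT they more often took, and a gene's own 3 double-mimic values were widely spread. The median spread from lowest to highest library was 1.68 SD units in Tau-K174Q-S199E, against 1.24 in Tau-S199E, 0.66 in Tau-K174Q and 0.90 in Tau-WT. The library farthest from the other double-mimic libraries was 18 in 922 genes (55.0%), 16 in 570 (34.0%) and 17 in 184 (11%).

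**Figure D1:**
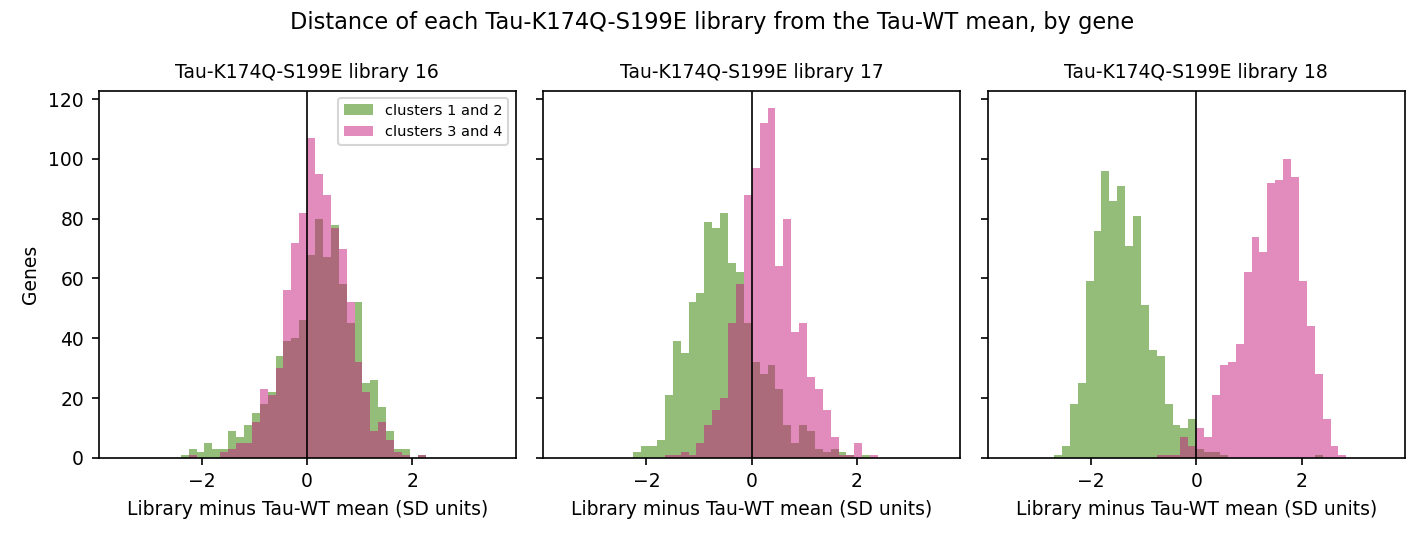
Difference of each Tau-K174Q-S199E library from the Tau-WT mean over 1676 genes, in SD units of each gene. The differences of library 18 are the widest, with a median size of 1.47 SD units against 0.447 for library 16 and 0.503 for library 17.

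No gene passed the test. The linear model of limma was fitted over the 12 libraries, with the ordinary variance of each gene and Benjamini-Hochberg adjustment. In it 0 of 1676 genes (0%) had an adjusted p below 0.05, and the smallest adjusted p was 0.533. That variance was shared by all constructs, whose spreads were unequal, so every SE and p also rests on constructs outside the comparison. At an unadjusted p below 0.05 there were 127 genes (7.58%), 66 higher (3.94%) and 61 lower (3.64%) in Tau-K174Q-S199E. The genes appear to have been selected for a difference in this study, which can itself set part of such counts. In 1675 of the 1676 genes both single-substitution means lay on the same side of the Tau-WT mean. Unadjusted counts, shares without overlap and group directions therefore cannot be read against chance. With moderated variances limma gave 0 genes as well, and 156 (9.31%) at an unadjusted p below 0.05. Without library 18 the count was again 0, with 56 at an unadjusted p below 0.05. That unadjusted count was 71 with only the 6 libraries compared. It was 397 without library 16, 201 without library 17 and 76 without Tau-WT library 2. In a fit added after seeing the data, without Tau-S199E library 12, it was 192. Without library 16, 2 genes passed the adjusted threshold: BCAT2, the mitochondrial enzyme that transaminates branched-chain amino acids, was higher by 2.13 SD units (SE 0.20, adjusted p = 0.0251), and RPL7, a protein of the large ribosomal subunit, was lower, with a difference of -1.95 (SE 0.23, adjusted p = 0.0467).

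Differences of the group means ran from -1.66 to 1.87 SD units, with a median size of 0.65 and a median SE of 0.56. They were positive in 944 genes (56.3%) and negative in 732. Without library 18 they were positive in 955 genes (57%). All 3 double-mimic libraries lay above all 3 Tau-WT libraries in 122 genes (7.28%) and below them in 72 (4.3%). An exact permutation test of 3 against 3 libraries cannot give a p below 0.1 for any of these. Without library 18, the remaining double-mimic libraries were above Tau-WT in 158 genes (9.43%) and below in 90 (5.37%), a looser condition because fewer libraries must agree. Leaving out library 16 instead gave 308 above and 423 below, library 17 gave 290 and 124, Tau-WT library 1 gave 251 and 155, and Tau-WT library 3 gave 246 and 112. Against all 9 other libraries, no gene had its 3 double-mimic libraries highest, and 2 genes (0.119%) had them lowest. One of these has no symbol in the table. The other, named after its values were seen, was SLC2A4RG, a transcription factor known for binding regulatory DNA of the glucose transporter SLC2A4. It stood at -1.81, -0.84 and -0.85 in libraries 16, 17 and 18, against 0.34, -0.66 and -0.37 in Tau-WT libraries 1, 2 and 3.

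The genes with the smallest p are given next. The 10 higher and 10 lower genes had differences of 1.02 to 1.87 and of -1.66 to -1.15 SD units, with SEs of 0.25 to 0.47, and each had an adjusted p of 0.533. In all 20 the double-mimic libraries did not overlap Tau-WT, but the genes were picked for a small p, so this follows in part from the choice.

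MRPS34 encodes a protein of the small mitochondrial ribosomal subunit (chromosome 16, 1771890 to 1773155, minus strand; GENCODE 29 on GRCh38, as for the positions that follow). It was at -0.51, 0.31 and 0.15 in libraries 16, 17 and 18, against -1.31, -1.44 and -0.81 in Tau-WT libraries 1, 2 and 3. TOMM20, the presequence receptor of the outer mitochondrial membrane (chromosome 1, 235109336 to 235128936, minus strand), was at -0.32, -0.30 and 0.52, against -1.45, -1.27 and -1.44 in Tau-WT. For both genes every double-mimic library was above every Tau-WT library, and the differences were 1.17 (SE 0.25) and 1.35 (SE 0.29) SD units. Also among the 10 were OXA1L, which inserts proteins into the inner mitochondrial membrane, with a difference of 1.18, AURKAIP1, a component of the small mitochondrial ribosomal subunit, with 1.02, and BCAT2, with 1.61. Library 16 was the lowest double-mimic library for MRPS34, TOMM20, OXA1L and BCAT2, and for BCAT2 it stood at -0.88 while libraries 17 and 18 stood at 0.53 and 0.82.

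GNPTAB had the largest difference of the table. It encodes a subunit of the Golgi enzyme that starts the mannose 6-phosphate tag of lysosomal enzymes (chromosome 12, 101745497 to 101830938, minus strand). It was at 0.14, 0.59 and 0.49 in libraries 16, 17 and 18, against -1.69, -1.42 and -1.29 in Tau-WT, a difference of 1.87 SD units (SE 0.41). Here library 18 lay between libraries 16 and 17, and the difference was 1.83 without it. Its mean was 0.41 ± 0.24 with Tau-K174Q-S199E, 0.28 ± 0.60 with Tau-S199E, 0.77 ± 0.74 with Tau-K174Q and -1.47 ± 0.20 with Tau-WT (SD, n = 3 each). EXTL3, a glycosyltransferase of heparan sulfate synthesis, was similar, at 0.45, 0.022 and 0.97 in libraries 16, 17 and 18, against -1.53, -1.25 and -1.29 in Tau-WT. ATP2C1, the Golgi calcium and manganese pump, differed by 1.16.

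AKT1, a kinase of growth factor signalling, is also among the enzymes known to phosphorylate tau. It was at -0.068, -0.64 and 0.53 in libraries 16, 17 and 18, against -2.0, -1.35 and -0.99 in Tau-WT, a difference of 1.39 SD units (SE 0.33). AHRR, a repressor of the aryl hydrocarbon receptor, differed by 1.66 (SE 0.40), with library 16 at -0.65, close to the -0.98 of Tau-WT library 1. In both genes library 18 was the highest double-mimic library.

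Among the lower genes was HSP90AB1, the constitutive cytosolic HSP90 (chromosome 6, 44246166 to 44253888, plus strand). It was at 0.51, 0.06 and -0.74 in libraries 16, 17 and 18, against 1.77, 1.25 and 1.07 in Tau-WT, a difference of -1.42 SD units (SE 0.37). HSPA5, the HSP70 of the endoplasmic reticulum, was named for its wide gap from Tau-WT. It was at 0.11, -0.13 and -0.44, against 1.09, 1.60 and 1.08 in Tau-WT. Library 18 was the lowest for both, but libraries 16 and 17 were also below every Tau-WT library. RPLP0, the stalk protein of the large ribosomal subunit, was at 0.63, -0.74 and -0.44, against 1.73, 0.79 and 1.0 in Tau-WT.

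The smallest p of the table belonged to RPL12P16, a processed pseudogene of a ribosomal protein gene (chromosome 2, 203190780 to 203191277, plus strand). It was at -0.26, 0.041 and -0.30 in libraries 16, 17 and 18, against 1.54, 1.84 and 1.04 in Tau-WT, a difference of -1.65 SD units (SE 0.31). Its value is uncertain because reads of the parent gene can be counted on it, and the same holds for YBX1P2, a pseudogene of the Y-box protein YBX1, which differed by -1.15. SSRP1, a subunit of the histone chaperone FACT, differed by -1.57 (SE 0.38). RUBCN, a negative regulator of autophagosome maturation, was at 0.18, -0.25 and -0.68, against 1.11, 2.03 and 1.10 in Tau-WT. The remaining lower genes were GBP1, an interferon-inducible GTPase (-1.37), USP14, a deubiquitinase of the proteasome (-1.45), PELP1, a nuclear receptor coregulator (-1.53), and NSDHL, an enzyme of cholesterol synthesis (-1.21).

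**Figure D2:**
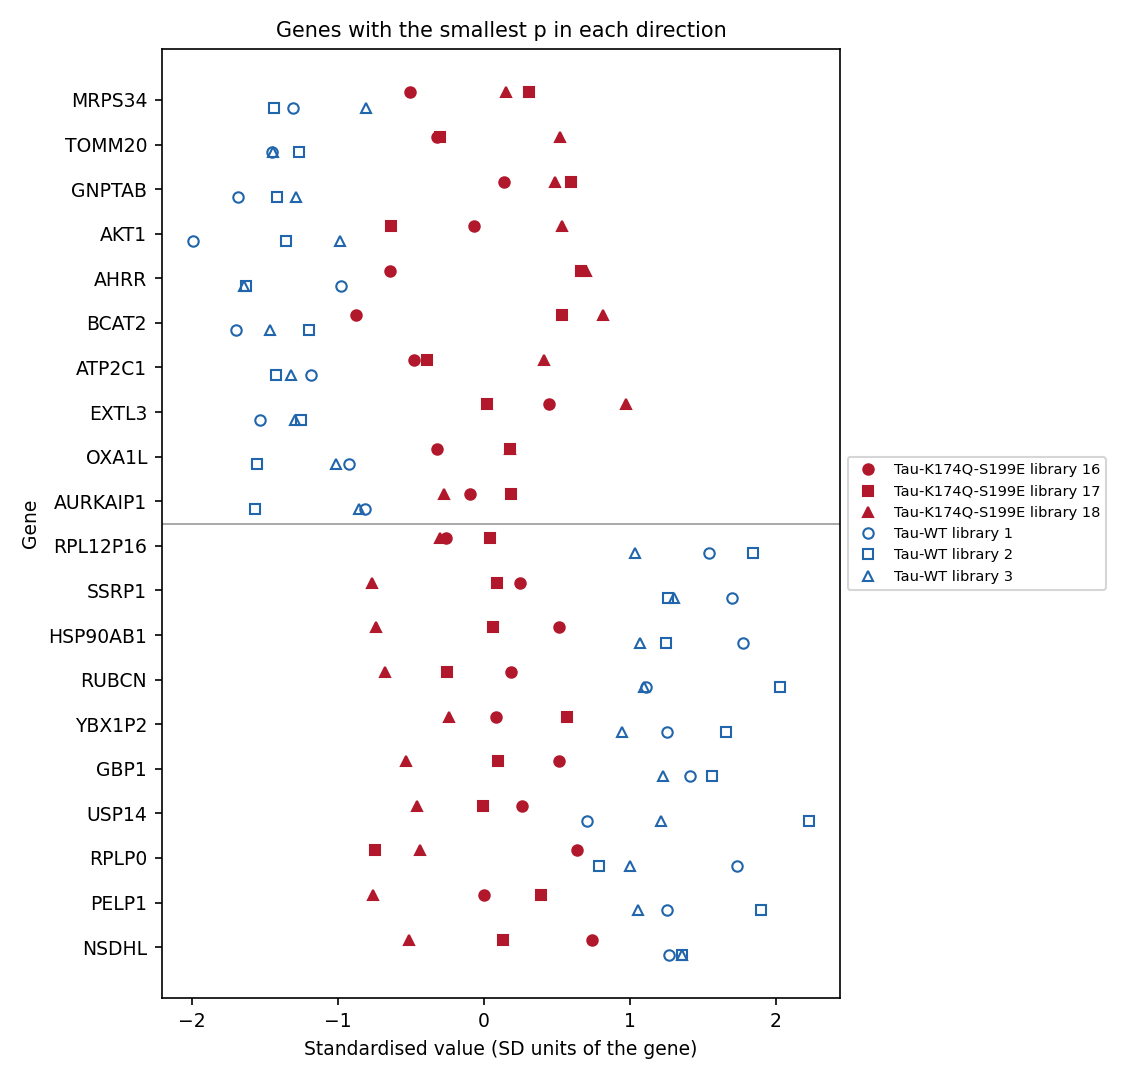
Standardised value of the genes with the smallest p in each direction, in every Tau-K174Q-S199E library and every Tau-WT library. For GNPTAB the double-mimic libraries lie between 0.14 and 0.59 and the Tau-WT libraries between -1.69 and -1.29. None of these genes passed the adjusted threshold.

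LMNA and STIM1 separated the groups by more in libraries 16 and 17 than in library 18. LMNA, the gene of the nuclear lamins A and C, was at 1.71 and 1.88 in libraries 16 and 17 and at 0.069 in library 18, against 0.65, 0.18 and -0.16 in Tau-WT. STIM1, the calcium sensor of the endoplasmic reticulum, was at -0.21 and -0.38 in libraries 16 and 17 and at 0.96 in library 18, against 1.67, 0.71 and 1.39 in Tau-WT. For both genes library 18 lay within the Tau-WT range while the other double-mimic libraries were outside it. In NBPF9 all 3 double-mimic libraries were apart from Tau-WT. This gene, of the neuroblastoma breakpoint family, was tightly grouped in both constructs, at 0.12, -0.09 and 0.15, against -1.06, -0.94 and -1.04 in Tau-WT. Its near-identical copies make its counts uncertain. Its SE was 0.73, from a variance shared by all constructs, and its SD was 1.73 in Tau-S199E, against 0.13 in Tau-K174Q-S199E and 0.069 in Tau-WT.

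In other genes library 18 parted from libraries 16 and 17. Its distance from the mean of libraries 16 and 17 had a median of 1.28 SD units, against 0.66 between library 16 and library 17, and it was the larger distance in 1194 genes (71.2%). ABL1, a tyrosine kinase that can phosphorylate tau, was at -1.64 and -1.0 in libraries 16 and 17 and at 1.23 in library 18, against -0.93, -1.11 and -0.60 in Tau-WT. SYVN1, the ubiquitin ligase of endoplasmic reticulum degradation, was at -1.08 and -1.49 and then 1.19, against -0.89, -0.62 and -1.24 in Tau-WT. In these genes libraries 16 and 17 lay on the same side of 0 as Tau-WT and library 18 on the other.

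The same held on the lower side. PRPF6, a protein of the spliceosomal tri-snRNP, was at 1.21 and 1.28 in libraries 16 and 17 and at -1.26 in library 18, against 0.91, 1.2 and 0.60 in Tau-WT. ERP29, a lumenal protein of the endoplasmic reticulum, was at 1.24 and 0.74 and then -1.46, against 1.81, 0.67 and 0.68 in Tau-WT. RPSA, a protein of the small ribosomal subunit, was at 1.70 and 0.59 and then -1.10, against 0.46, 1.23 and 1.09 in Tau-WT. SNX7, C8orf88 and FAM83D on the higher side and DCXR, AHNAK2 and SUMF2 on the lower side were also chosen for the distance of library 18, which stood at 0.89 to 1.44 and at -1.23 to -0.95. In C8orf88 libraries 16 and 17 were at -1.59 and -1.45, below every Tau-WT library, so there the double-mimic libraries lay on both sides of Tau-WT.

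The authors' 4 deposited clusters were made from these same libraries, so their directions are descriptions. In clusters 3 and 4 the mean of the double-mimic libraries was above that of Tau-WT in 848 of 886 genes, and in clusters 1 and 2 it was below in 694 of 790. Without library 18 these counts were 659 and 494. Library 18 set most of the size. In cluster 3 the median difference from Tau-WT was 1.83 SD units for library 18 and 0.31 for libraries 16 and 17, in cluster 4 it was 1.24 and 0.22, and in cluster 1 it was -1.48 and -0.25. In cluster 2 the libraries parted: the median difference was 0.47 for library 16, -0.14 for library 17 and -1.31 for library 18. The mean of libraries 16 and 17 was above the Tau-WT mean in 155 of its 255 genes, with a median of 0.21, which rested on library 16. Within cluster 1, library 16 had a mean value of 1.15 and library 17 one of 0.29, against 0.91, 1.07 and 0.94 in Tau-WT, so these libraries lay on opposite sides of Tau-WT.

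**Figure D3:**
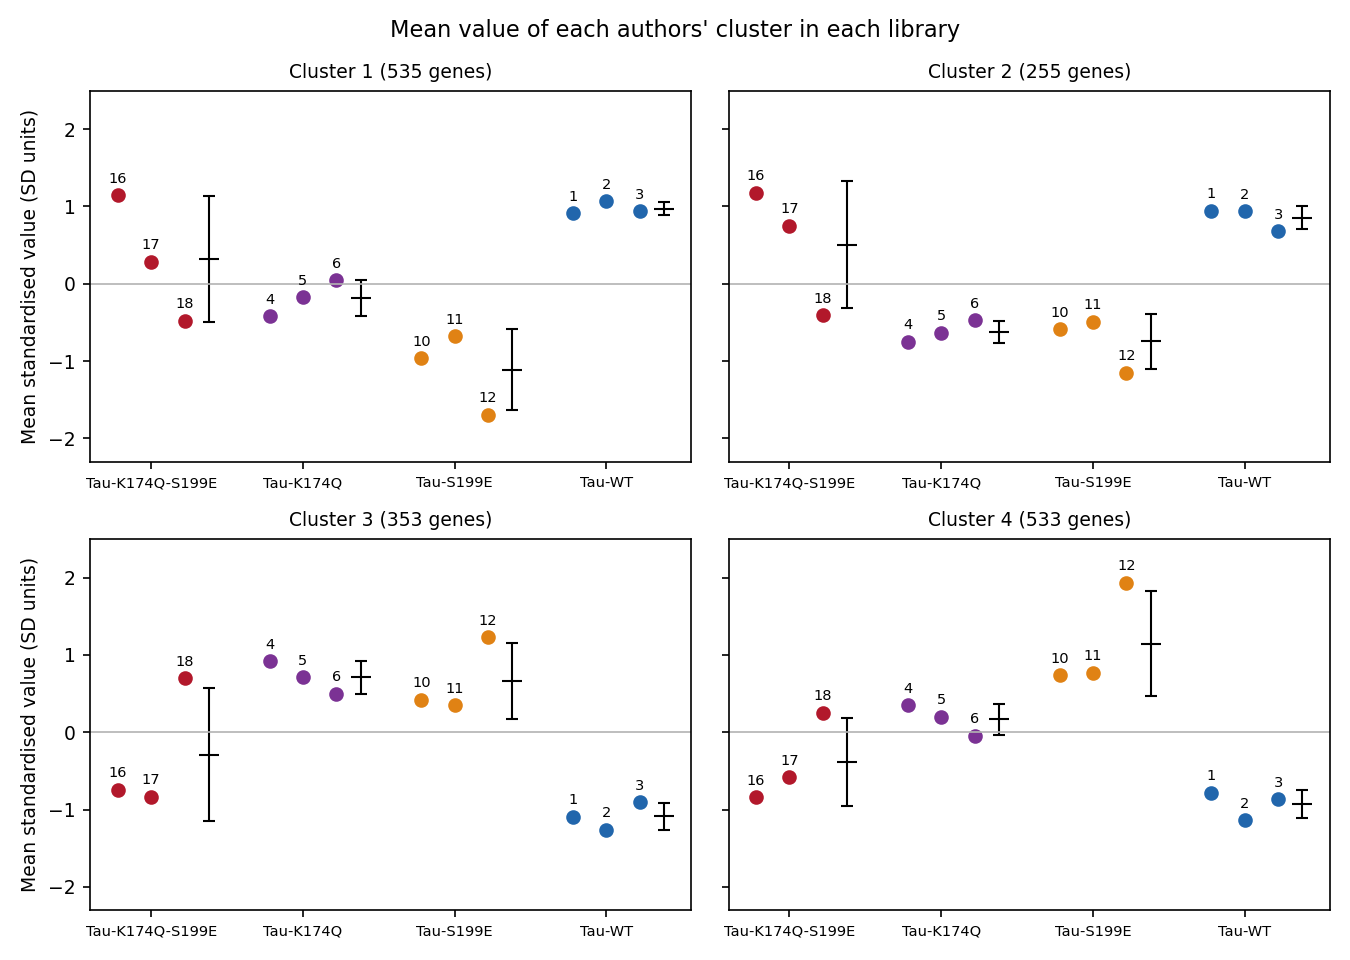
Mean standardised value of each library over the genes of each of the authors' 4 clusters, by construct. In cluster 3 the double-mimic libraries 16, 17 and 18 average -0.74, -0.83 and 0.70, and Tau-WT libraries 1, 2 and 3 average -1.09, -1.26 and -0.91.

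Gene groups are described by counts and medians only, since their lists were chosen with earlier results of these data known. None of their members passed the test over all 12 libraries. Over all 1676 genes, 944 (56.3%) were higher and the median difference was 0.20 SD units, and 0.092 without library 18. A group's direction largely followed the clusters its genes belong to: 134 of the 1676 genes went against the direction of their cluster.

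Nuclear-encoded subunits of the respiratory chain and ATP synthase, which make the bulk of cellular ATP, were mostly higher. Of 31 in the table, 28 were higher and 3 lower, with a median difference of 0.67 SD units, and 25 of the 31 belong to clusters 3 and 4. Without library 18 the split was also 28 and 3, with a median of 0.58. NDUFC1, a subunit of complex I, was at -0.16, -0.82 and 1.01 in libraries 16, 17 and 18, against -1.62, -0.66 and -1.45 in Tau-WT. ATP5F1B, the catalytic beta subunit of ATP synthase, was at 0.067, -0.84 and 0.53, against -0.67, -1.91 and -1.28. In both, library 17 overlapped Tau-WT. In the whole group 5 genes had no overlap, all of them higher, where the share over all genes was 7.28%. In clusters 3 and 4, which hold 25 of the 31, all 3 double-mimic libraries were above Tau-WT in 121 of 886 genes. In clusters 1 and 2 they were above in 1 of 790.

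Other mitochondrial groups were more mixed. Of 21 genes of mitochondrial import and the inner membrane, 13 were higher and 8 lower, and 12 and 9 without library 18 (medians 0.30 and 0.13). TOMM20 and OXA1L led them, and GRPEL1, a cochaperone of matrix import, was the lowest with -1.17. Of 25 mitochondrial ribosomal proteins, 17 were higher, and 14 without library 18 (medians 0.44 and 0.15), led by DAP3 with 1.31 and MRPS34, while MRPL23 differed by -1.15. Of the 3 mitochondrially encoded transcripts, MT-CO2 differed by 0.97, MT-CO3 by 0.68 and MT-ND5 by -0.90.

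Translation genes lay on both sides of Tau-WT. Of 32 cytosolic ribosomal proteins 19 were higher and 13 lower, with a median of 0.48 and of 0.30 without library 18. Without Tau-WT library 2 the median was 0.0054, so it rested on that library. RPL19 was at 0.32, -1.04 and 0.58 in libraries 16, 17 and 18, against -0.62, -2.10 and -0.94 in Tau-WT. RPL7 was at 1.0, -0.77 and -0.54, against 1.62, 1.07 and 1.21 in Tau-WT. In both genes the double-mimic libraries parted, and counts of ribosomal protein genes are uncertain because of their many processed pseudogenes. Translation factors were split 12 and 12 with library 18 and without it (medians -0.13 and 0.021). Aminoacyl-tRNA synthetases were split 6 and 6 (median 0.027), and 7 and 5 without library 18 (median 0.23). Of 21 ribosome biogenesis genes 6 were higher and 15 lower, and 7 and 14 without library 18 (medians -0.54 and -0.14). Of 35 splicing factors 19 were higher, and 22 without library 18 (medians 0.27 and 0.15), and of 11 small nucleolar RNA host genes and abundant noncoding RNAs 8 were higher (median 0.67, and 0.14 without library 18).

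Proteostasis genes divided by library. Of 11 genes of the integrated stress response and the unfolded protein response, which lower translation and expand folding capacity, 7 were higher and 4 lower, with library 18 and without it (medians 0.46 and 0.17). Without library 16 the median was 0.098. In library 16, 7 of the 11 lay above all 3 Tau-WT libraries, where the share over all genes was 37.2%. In library 17, 2 lay above, where that share was 22.9%, and 6 lay below all 3, where it was 30.1%. The next genes are among the 7 of library 16 and were picked after their values were seen. ASNS, which makes asparagine, was at 2.15 in library 16 and at -0.19 and -0.64 in libraries 17 and 18, against 0.85, 0.48 and 0.75 in Tau-WT. DDIT3, the stress transcription factor CHOP, was at 2.0, 0.79 and 0.48, against 0.45, 0.72 and 0.42. PHGDH, the first enzyme of serine synthesis, was at 2.19, -0.085 and -0.33, against 0.63, 0.15 and 0.98. For these genes library 16 was the outlying double-mimic library. XBP1 and MANF, targets of the endoplasmic reticulum branch, were the highest of the group with 0.97 and 0.95, and HSPA5 the lowest with -1.41.

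Of 16 chaperones 9 were higher and 7 lower, and 11 and 5 without library 18 (medians 0.20 and 0.071). HSPB8, a small heat shock protein, differed by 0.97, whereas HSPA4, an exchange factor of HSP70, differed by -1.31. Of 17 genes of the ubiquitin and proteasome core 10 were higher, with a median of 0.43, but without library 18 there were 9, with a median of 0.056. Of 15 autophagy and lysosome genes 10 were higher, and 11 without library 18, with medians of 0.36 and 0.21.

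Mitotic genes leaned the other way. Of 12 G2/M genes 8 were lower, with a median of -0.84 SD units, and without library 18 there were 10 lower, with a median of -0.57. Without library 16 the median was -0.25. Alone, libraries 16, 17 and 18 had medians of -0.70, -0.083 and -0.67, so the size of this lean rested on libraries 16 and 18. In library 18, 7 genes were lower and 5 higher. That is also how the 12 divide by cluster, with 7 in clusters 1 and 2 and 5 in clusters 3 and 4. AURKB, TPX2 and MYBL2 were below every Tau-WT library in all 3 double-mimic libraries, against 4.3% of all genes and 69 of the 790 genes of clusters 1 and 2. MYBL2, a transcription factor of late cell cycle genes, was at 0.58, -0.23 and -0.65, against 0.91, 1.44 and 1.48 in Tau-WT. TPX2, a spindle assembly factor, was at 0.24, 0.45 and -0.65, against 1.56, 1.24 and 1.17. Library 16 was below all 3 Tau-WT libraries in 6 of the 12, ANLN (-1.31) and BUB1B (-1.14) among them, and above in 0, where over all genes it was below in 14.5% and above in 37.2%. Of 14 G1/S genes 9 were higher, with a median of 0.53 and of 0.27 without library 18.

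Genes close to tau itself were mixed. Of 15 tubulins and microtubule-associated proteins 8 were higher and 7 lower, and 9 and 6 without library 18 (medians 0.38 and 0.15). DYNLT1, a dynein light chain, was at -0.69, -0.23 and 0.33 in libraries 16, 17 and 18, against -1.77, -1.16 and -1.16 in Tau-WT. DCTN1, the large dynactin subunit, was at 0.50, 0.40 and -0.32, against 0.77, 1.26 and 1.21. MAPT was at -0.59, 2.54 and 0.64, against 0.00028, 0.85 and 0.11, and library 17 held the highest value. The sources do not say whether reads of the introduced tau were counted on MAPT, so its value is no check of the constructs. Of 12 enzymes that modify tau 5 were higher and 7 lower, with library 18 and without it (medians -0.27 and -0.087), AKT1 being the highest and PRKACA, the catalytic subunit of protein kinase A, the lowest with -0.84.

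**Figure D4:**
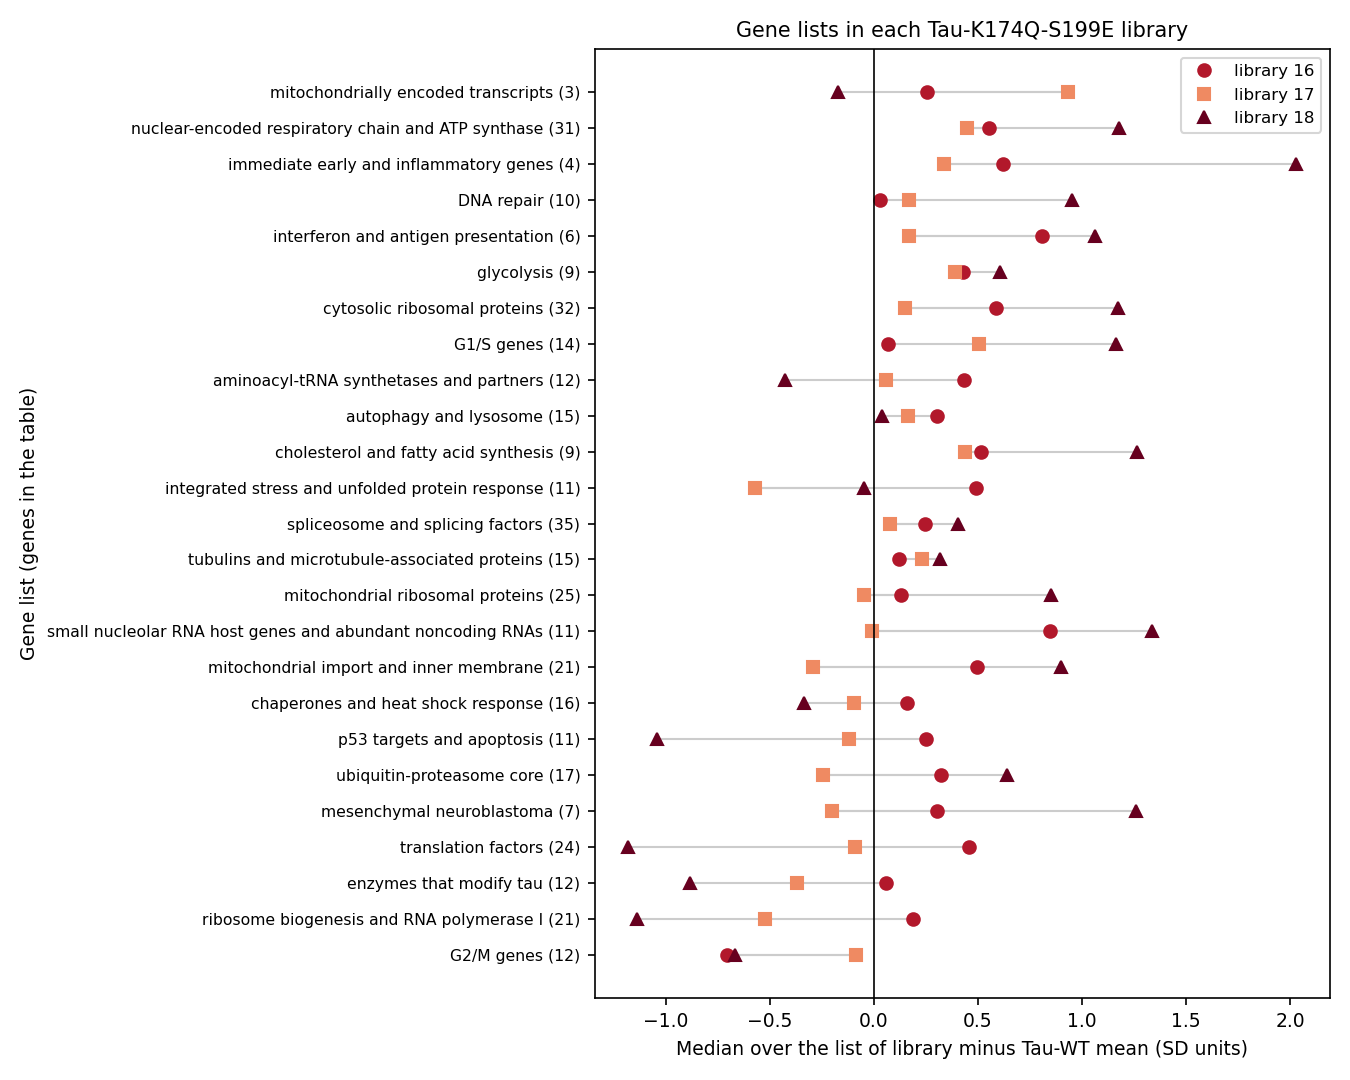
Median difference from the Tau-WT mean by gene group, for libraries 16, 17 and 18 each, in SD units. For the respiratory chain the medians are 0.56, 0.45 and 1.18, and for the G2/M genes -0.70, -0.083 and -0.67.

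The smaller groups were as follows. Of 9 cholesterol and fatty acid synthesis genes 7 were higher, and 6 without library 18 (medians 0.47 and 0.18). Of 9 glycolysis genes 6 were higher (median 0.55, and 0.47 without library 18). Of 11 p53 targets and apoptosis genes 6 were lower, and 4 without library 18 (medians -0.44 and 0.056). Of 10 DNA repair genes 8 were higher, and 6 without library 18 (medians 0.33 and 0.49). Of 6 interferon and antigen presentation genes 4 were higher, and 5 without library 18 (medians 0.99 and 0.48). Of 4 immediate early and inflammatory genes 3 were higher, and 4 without library 18 (medians 1.02 and 0.50). Of 2 hypoxia targets 1 was higher, and 2 without library 18. Of 7 mesenchymal neuroblastoma markers 5 were higher, and 4 without library 18 (medians 0.45 and 0.053).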

How the data were processed

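Per the labels' protocols, each library took 400 ng of RNA and was prepared with a kit that reads the 3′ end of mRNA. STAR 2.5.3a, RSEM 1.2.31, DESeq2 and the build GRCh38 are listed in the submitters' processing notes, without their roles. The 12 library columns of the deposited table hold a score: the values show that the authors scaled each gene to mean 0 and SD 1 across all libraries. The sources used here name no transform before that, no gene filter and no strand setting. The authors also deposited a log2 fold change, an adjusted p-value and a cluster number for each gene, per the file headers; only the cluster was used. Depth is unknown, so no interval for counting error can be given.

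limma 3.58.1 (R 4.3.3) was fitted to the scores: a mean for each of 4 constructs, ordinary residual variance (8 degrees of freedom), two-sided, Benjamini-Hochberg over 1676 genes, threshold 0.05. Fits were tested on simulated data of independent genes with equal spread in every construct. The libraries here differ from that, so the simulation checked the fitting and not the p-values of these data. Of 1676 genes, 1659 have a symbol, and positions are those of GENCODE 29 on GRCh38. Named genes are the 10 with the smallest p in each direction, the 6 with the widest gap between groups, the 6 in which library 18 was farthest from libraries 16 and 17, the 6 in which libraries 16 and 17 were farthest outside the Tau-WT range, the highest 2 and lowest 2 of each of 25 lists with 3 or more genes in the table, and MAPT. Some genes that this rule names are not reported here. The members and the 27 lists were chosen with earlier results of these data known, and no list was tested. The alternatives were moderated variances, only the 6 libraries compared, library medians subtracted and leaving out each library. Fits without libraries 18 or 12 together with other choices were added after seeing the data.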

Additional observations from a re-analysis of the deposited data

How the results depend on the processing

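Leaving out each library in turn, the count of genes past the adjusted threshold was 0 to 2 (higher 0 to 1, lower 0 to 1), and the 2 came without library 16. It was 0 with moderated variances, with the 6 libraries alone, with library medians subtracted, and in the 3 fits added after seeing the data. At an unadjusted p below 0.05 the count was 56 without library 18 and 397 without library 16, against 127 with all libraries. With the 6 libraries alone it was 71. Genes without overlap between the groups numbered 194 with all libraries and 248 to 731 when 1 library was left out (higher 158 to 308, lower 90 to 423), where fewer libraries make the condition looser. The sign of the difference turned in 389 genes without library 18, and in 99 with library medians subtracted. Of the gene groups, the median turned for chaperones without library 17 (range over the libraries left out -0.115 to 0.232), for tubulins without library 17 (range -0.129 to 0.534) or Tau-WT library 2 (-0.0385), and for p53 targets without library 18 (range -0.782 to 0.0563). Medians near 0 also changed side: translation factors without library 17 (0.0148) or library 18 (0.0205), aminoacyl-tRNA synthetases without library 16 (-0.172), without Tau-WT library 1 (-0.023) or with library medians subtracted (-0.165), and cluster 2 without library 18 (0.211). Alternatives on counts, pseudocounts and low-value filters were not run because the values are standardised scores. No paired analysis was possible because the columns carry library numbers and not the replicate numbers of the labels.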
